A study of Mus musculus with 2 samples.

Results

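Imprinted genes, of which 1 parental copy is silenced by marks set in the egg or sperm, were described in mouse kidney at embryonic day 14.5. A list of 41 genes taken from the literature was matched by gene ID to GENCODE symbols. The match found 38 of them among the 42462 genes that carried an annotation, and Peg13, Dcn-as and Slc38a4-as were not analysed here. Total RNA had been sequenced from 2 libraries, each from 2 kidneys of 1 embryo of strain B6NCrl, with no treatment or mutation named; the labels also call the samples mixed in sex. The libraries are biological replicates of 1 group whose embryos were collected 2 days apart. The design therefore gives levels in a normal fetal kidney and their spread, and no test between conditions. Both copies of each gene carry the same sequence in an inbred strain, so the parental copy in use was not measured and the alleles below are those of the literature.

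Imprinted genes lie mostly in clusters, each governed by a control region that is methylated on the copy inherited from 1 parent. In several clusters a long noncoding RNA made from 1 copy silences protein-coding neighbours on that copy. Many paternally expressed members drive fetal growth and many maternally expressed members restrain it, and loss of Cdkn1c or gain of Igf2 is known to disturb growth of the kidney. 1 listed gene, Ppp1r9b (spinophilin), has no known imprint. It resembles in name Ppp1r9a, the imprinted neighbour of Sgce, and was kept as listed.

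Several listed genes host microRNAs, small RNAs whose seed (bases 2 to 8, in capitals) pairs with target messages. Apart from miR-127, they are shown because the level of the host is all that these data give of them. RNA shorter than 200 nt was not in the libraries, so no mature microRNA was measured. The RefSeq mature sequences, 5′ to 3′, follow, and no seed occurs more than once among them.
miR-675-5p: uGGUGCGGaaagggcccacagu
miR-675-3p: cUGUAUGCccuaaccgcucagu
miR-335-5p: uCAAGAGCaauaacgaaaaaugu
miR-483-5p: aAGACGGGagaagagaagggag
miR-483-3p: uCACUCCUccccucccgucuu
miR-127-3p: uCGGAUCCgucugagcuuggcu
miR-370-3p: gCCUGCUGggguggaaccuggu
miR-410-3p: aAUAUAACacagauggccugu
The hairpin of miR-675 (GRCm38.p6, chr7:142577064-142577147, minus strand) lies in an exon of 2 H19 transcripts, H19-205 and H19-202. On TPM they together held 58.7% and 63.2% of H19 in replicates 1 and 2, or 260 and 319 TPM. In expected counts H19-205 held 41.2% and 44.5% of H19, and H19-202 held 38.1% and 37.7%. H19-205 is 1853 nt as quantified but 1521 nt in the annotation used here for exons. The hairpins of miR-335 in Mest, of miR-483 in Igf2 and of miR-370 in Rian lie outside the exons of their hosts. The hairpin of miR-127 lies opposite the exon of Rtl1, so Rtl1 is not its host and no host level is given for it. That of miR-410 lies in an exon of 5 Mirg transcripts with 9.44% and 15.6% of the TPM of Mirg.

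The start sites of Grb10 and Igf2 are shown because transcripts of these genes begin at several places that differ in CG content. Each run gives the 250 bases before a RefSeq start, on the strand of the gene, with CG dinucleotides, the sites of methylation, in capitals. Both Grb10 windows lie on the minus strand of GRCm38.p6. The window of the upstream start (chr11:12037421-12037670) precedes the transcript found at the higher level, and that of Grb10-203 (chr11:12027972-12028221) precedes 1 of the transcripts with a start further downstream.
Grb10 upstream start: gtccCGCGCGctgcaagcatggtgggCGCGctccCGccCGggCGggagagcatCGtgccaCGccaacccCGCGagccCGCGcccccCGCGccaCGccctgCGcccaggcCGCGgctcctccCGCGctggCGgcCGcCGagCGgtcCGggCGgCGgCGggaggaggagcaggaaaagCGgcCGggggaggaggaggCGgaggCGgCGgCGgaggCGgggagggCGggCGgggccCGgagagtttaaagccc
Grb10-203 start: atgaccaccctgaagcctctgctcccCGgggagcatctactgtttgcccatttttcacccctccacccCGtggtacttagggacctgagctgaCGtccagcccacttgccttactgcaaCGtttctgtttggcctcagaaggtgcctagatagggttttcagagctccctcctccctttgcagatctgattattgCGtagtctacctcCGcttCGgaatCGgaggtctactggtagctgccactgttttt
The upstream window holds 40 CG dinucleotides, a number that 1.31% of all 32851 windows reach. The window of Grb10-203 holds 8, which 43.0% reach. That transcript held only 0.22% and 0.87% of Grb10 in replicates 1 and 2. Grb10-207, which starts further downstream and held 44.0% and 24.4%, had no window. The contrast in CG therefore does not cover the downstream start with the most TPM. The Igf2 windows, also on the minus strand, precede the starts of Igf2-203 (chr7:142666817-142667066) and Igf2-202 (chr7:142657497-142657746).
Igf2-203 start: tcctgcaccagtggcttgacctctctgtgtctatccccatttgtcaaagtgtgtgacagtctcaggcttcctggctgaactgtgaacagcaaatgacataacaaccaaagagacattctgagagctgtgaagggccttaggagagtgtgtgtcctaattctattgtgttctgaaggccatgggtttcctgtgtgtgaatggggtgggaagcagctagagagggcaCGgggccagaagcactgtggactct
Igf2-202 start: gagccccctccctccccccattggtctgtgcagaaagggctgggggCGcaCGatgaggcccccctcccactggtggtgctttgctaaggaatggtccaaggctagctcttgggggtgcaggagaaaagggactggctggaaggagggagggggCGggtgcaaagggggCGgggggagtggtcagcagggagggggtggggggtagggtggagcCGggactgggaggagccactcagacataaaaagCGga
The window of Igf2-203 holds 1 CG, which 92.1% of windows reach, and that of Igf2-202 holds 6, which 50.4% reach. Other Igf2 windows hold exonic bases and were not printed. That at the first exon of Igf2-205 holds 22 CG, which 14.8% reach, and that at the first exon of Igf2-206 holds 10, which 37.8% reach. The listed genes had 46 windows in 31 genes, with a median of 10 CG, against 6 over all windows.

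Of the 38 matched genes, 32 were detected, meaning at least 1 TPM (transcript abundance per length, scaled to a fixed sum) in both libraries. Over all annotated genes 33.5% passed the same floor, and over the 21474 protein-coding ones 59.0%. The median over the 38 of their mean level was 26.2 TPM, with medians of 29.3 and 28.1 TPM within replicates 1 and 2. Over the 32 detected listed genes the median was 32.8 TPM, against 15.9 TPM over all 14225 detected genes. A mean of 100 TPM or more was reached by 11 listed genes, 34.4% of those detected, against 10.5% of all detected genes. A mean of 500 TPM or more was reached by Mest, Gnas, Cdkn1c and Igf2, 12.5% against 1.95%. The list was drawn up with levels in these libraries known, so these shares describe it and test nothing. In whole tissue a lower level can mean fewer expressing cells or less RNA in each, which cannot be told apart.

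**Figure D1:**
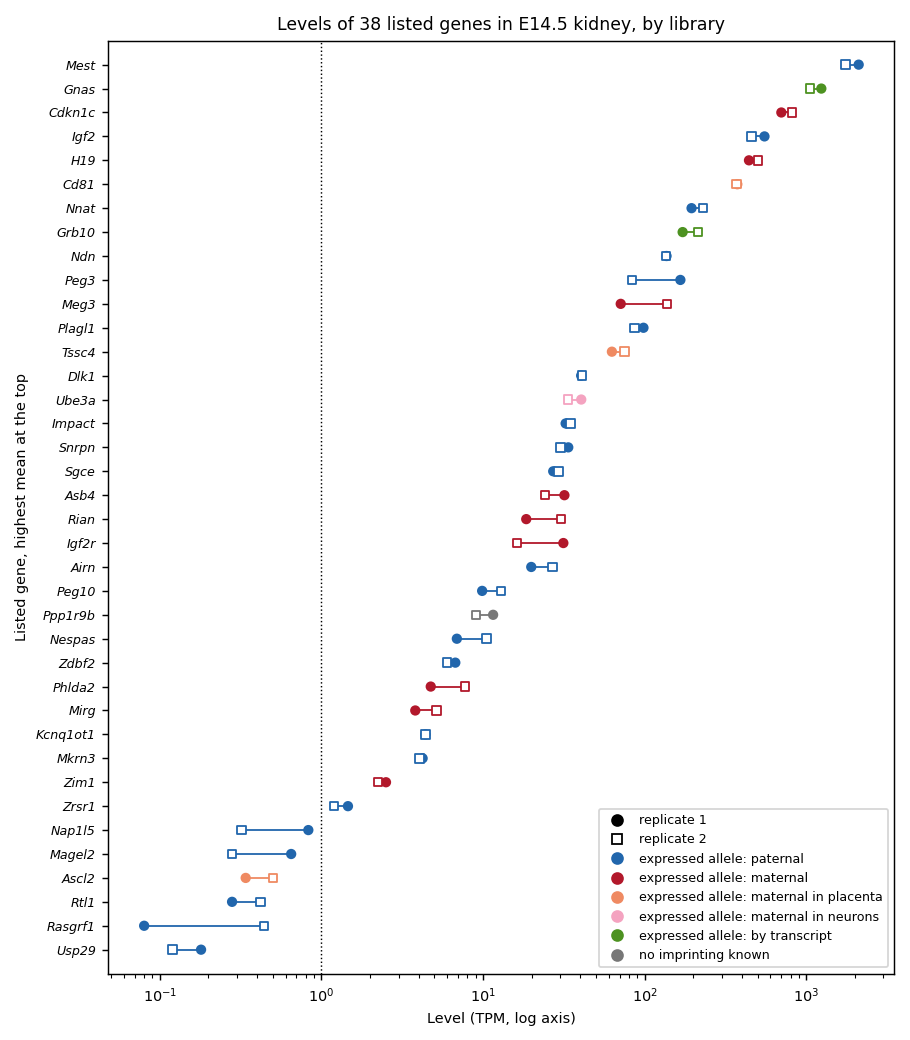
Level of each of the 38 matched genes in TPM on a log axis, with replicate 1 as filled circles, replicate 2 as open squares and a line joining both; colour gives the expressed allele known from the literature and the dotted line marks 1 TPM. Levels run from 0.15 TPM for Usp29 to 1933 TPM for Mest, and for most genes the replicates lie close together beside that range.

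The libraries held 29718428 and 29204212 expected counts in replicates 1 and 2, of which 28429080 and 27758872 fell on genes. The listed genes took 279088 and 291830 of these, or 0.982% (Clopper-Pearson 95% interval 0.978 to 0.985%) and 1.05% (1.05 to 1.06%), a mean of 1.02% ± 0.0492 (SD, n = 2). Mest alone held 34.6% and 30.7% of the counts on the list. All 6 kidney markers were detected, with a median of 27.9 TPM. Cited1 stood at 136 TPM, Wt1 at 105 TPM, Pax2 at 38.3 TPM, Six2 at 17.6 TPM, Foxd1 at 15.3 TPM and Ret at 8.06 TPM (means, n = 2). Of markers of organs in which imprinted genes are prominent, 0 of 5 adrenal and 0 of 4 placental ones were detected, with summed levels of 2.38 and 1.62 TPM for the adrenal and 0.89 and 0.88 TPM for the placenta. Of 5 neuron markers 2 were detected, summing to 20.5 and 17.8 TPM over the list. Of 5 skeletal muscle markers 3 were detected, summing to 32.7 and 33.1 TPM, and of 3 liver markers 3, summing to 25.3 and 16.3 TPM. The part of such cells in the levels below was not tested. From here on, pairs of values are replicates 1 and 2 in that order, and ± marks the SD over both libraries.

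The highest listed gene was Mest (ENSMUSG00000051855.11, mm10 chromosome 6, 30723547 to 30748465), a paternally expressed hydrolase-like gene of mesoderm. It had 2113 and 1754 TPM, a mean of 1933 ± 253 TPM, and stood at rank 40 among all annotated genes. Mest-211, a protein-coding transcript of 2554 nt, held 93.6% and 89.7% of it. Copg2, a coat protein gene that runs toward Mest on the other strand and shares exonic bases with it, stood at 24.9 and 26.0 TPM. Mest exceeded Copg2 84.7-fold and 67.4-fold.

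Gnas (ENSMUSG00000027523.15, chromosome 2, 174284320 to 174346744) encodes the stimulatory G protein subunit Gs-alpha and came second, with 1241 and 1055 TPM at rank 96. Its transcripts begin at several first exons that are known to differ in imprinting: the Gs-alpha exon is used from both copies in most tissues, Nesp from the maternal copy, and XLas and exon 1A from the paternal copy. Transcripts from the Gs-alpha first exon held 96.3% and 95.7% of Gnas, 96.0% ± 0.467. Their level was 1195 and 1009 TPM.

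The exon 1A, Nesp and XLas starts of Gnas gave small shares. Which copy the Gs-alpha transcripts came from in these kidneys was not measured, so their share cannot be classed as imprinted or not. Transcripts from exon 1A held 2.25% and 2.54%, or 27.9 and 26.8 TPM. Those from the Nesp exon, which encode the neuroendocrine secretory protein, held 0.53% and 0.56%, or 6.60 and 5.94 TPM, and those from the XLas exon held 0.09% and 0.10%, or 1.12 and 1.05 TPM. Nespas, the paternal noncoding RNA antisense to Nesp, stood at 6.89 and 10.5 TPM, and Gnas exceeded it 180-fold and 101-fold. The sources used here do not state if reads were counted by strand, so those of Nesp and Nespas cannot be told apart with certainty where their exons overlap.

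Within the Gs-alpha transcripts, Gnas-208 was the most abundant with 78.7% and 76.3% of the gene, followed by Gnas-206 with 10.1% and 11.9% and Gnas-207 with 7.50% and 7.45%. Gnas-208 holds an exon of 45 nt (chromosome 2, 174336747 to 174336791) that the other two lack. That exon is the one that distinguishes the long from the short form of Gs-alpha. Gnas-208 made up 81.7% and 79.7% of these 3 transcripts together, 80.7% ± 1.39.

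Cdkn1c (ENSMUSG00000037664.8, chromosome 7, 143458339 to 143461050), the maternally expressed cyclin-dependent kinase inhibitor p57, had 702 and 820 TPM, a mean of 761 ± 83.4 TPM at rank 177. Its cluster is governed by Kcnq1ot1, a paternal noncoding RNA that runs antisense to Kcnq1 and shares exonic bases with it. Kcnq1 had 4.22 and 3.03 TPM from 211 and 170 counts. Counting by strand is not stated, so reads of these genes cannot be told apart with certainty where their exons overlap. Kcnq1ot1 stood at 4.40 TPM in both libraries. It is listed as 1 transcript of 84395 nt, so this level per length came from 7232 and 8356 expected counts. Cdkn1c exceeded it 160-fold and 186-fold per length and 3.41-fold and 3.98-fold in counts.

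Other genes of the Kcnq1 cluster ranged widely. The tetraspanin gene Cd81, imprinted in placenta, had 375 and 370 TPM, and Tssc4, a gene of spliceosome assembly also imprinted there, had 62.8 and 75.3 TPM. Phlda2, a maternally expressed restrainer of placental growth, had 4.75 and 7.76 TPM from 61 and 115 counts. Cdkn1c exceeded Phlda2 148-fold and 106-fold. Ascl2, a transcription factor of placental trophoblast, was below the floor with 0.34 and 0.50 TPM from 10 and 17 counts.

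The fetal growth factor gene Igf2 (ENSMUSG00000048583.12, chromosome 7, 142650766 to 142666816), expressed from the paternal copy, had 552 and 458 TPM, 505 ± 66.4 TPM at rank 276. H19 (ENSMUSG00000000031.11, chromosome 7, 142575529 to 142578143), the maternal noncoding RNA that shares its enhancers, had 443 and 504 TPM, 474 ± 43.7 TPM at rank 294. The ratio of Igf2 to H19 was 1.25 and 0.908, on either side of 1. Their order was therefore not the same in the 2 libraries, and their means differed by less than the SD of Igf2.

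The deposited isoform percent, the share of a gene's TPM, split Igf2 over several transcripts. Igf2-203, a protein-coding model of 650 nt with the most upstream start, held 35.8% and 24.2%. Igf2-208, a 958 nt model without a coding sequence, held 35.2% and 48.6%. The longer coding transcripts Igf2-202 and Igf2-205 held 14.3% and 14.8%, and 10.4% and 8.44%. The leading transcript was thus Igf2-203 in replicate 1 and Igf2-208 in replicate 2.

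These Igf2 shares depended on length. In expected counts, a measure chosen after the values were seen, Igf2-205 of 4722 nt led in replicate 1 with 34.9%, and had 28.7% in replicate 2, while Igf2-208 had 22.1% and 30.8%. All bases of Igf2-208 lie within exons of Igf2-205, so no base of it is its own. Igf2-203 stood above Igf2-202 on TPM, at 198 and 111 TPM against 78.7 and 67.8 TPM, but below it in counts, at 2124 and 1375 against 3692 and 3670. Igf2-203 shares 93.7% of its bases with Igf2-202 and has 41 bases of its own beside it. Reads on the shared bases were divided by the authors' estimate. On TPM, H19 was divided between H19-203 with 41.4% and 36.8%, H19-205 with 33.7% and 37.6% and H19-202 with 25.0% and 25.6%. In counts H19-203, a model of 817 nt, held only 20.7% and 17.8%. H19-205 held 41.2% and 44.5% of the counts, and H19-202 held 38.1% and 37.7%.

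Igf2r (ENSMUSG00000023830.9, chromosome 17, 12682406 to 12769664), the maternal receptor that clears IGF2 from the cell surface, had 31.4 and 16.2 TPM. Airn, the paternal noncoding RNA that runs antisense through it, had 19.9 and 26.9 TPM from 334 and 484 counts. The ratio of Igf2r to Airn was 1.58 and 0.603, so their order per length also turned between the libraries. In counts the same ratio was 14.8 and 6.26, with Igf2r the higher in both. The annotated Airn exons are spliced and short, whereas the RNA is known mostly as a long unspliced one. Airn-201, of 1113 nt, held 56.6% and 49.1% of it.

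A list of IGF and growth partners holds Igf1, receptors, IGF-binding proteins, proteins that bind Igf2 RNA, cell cycle genes and Notch1. Each of its 14 genes was detected, beside 59.0% of all protein-coding genes. Their median was 44.9 TPM, against 18.3 TPM over detected protein-coding genes. Cdk4, a cell cycle kinase of the G1 phase, led at 1871 ± 227 TPM, followed by Igfbp4, a binding protein of IGFs, at 363 ± 77.6 TPM, the cyclin gene Ccnd1 at 197 ± 53.3 TPM and Igfbp2 at 123 ± 8.10 TPM. Igf1 and its receptor gene Igf1r were the lowest, at 20.0 ± 2.59 and 19.2 ± 1.97 TPM.

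Grb10 (ENSMUSG00000020176.13, chromosome 11, 11930508 to 12038683) encodes an adaptor that dampens insulin and IGF receptors. It is known to be expressed from the maternal copy in most tissues, at the upstream start, and from the paternal copy in neurons, at downstream starts. The gene had 172 and 214 TPM, from 9472 and 18237 counts. Grb10-201, the full-length transcript of the upstream start, had 90.7 and 157 TPM, 52.8% and 73.3% of the gene. Grb10-207, a 4-exon model of 430 nt that starts downstream of Grb10-201 and of Grb10-203, had 75.6 and 52.3 TPM, 44.0% and 24.4%.

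By counts the split of Grb10 was another. Grb10-201 took 92.7% and 96.1% of the counts and Grb10-207 took 5.16% and 2.14%, or 489 and 390 counts. Grb10-207 shares 83.5% of its bases with Grb10-201 and has 71 of its own. Grb10-203, a transcript of 4755 nt from a downstream start whose window is printed above, had 0.38 and 1.85 TPM, 0.22% and 0.87% of the gene. Grb10-207 thus held most of the TPM listed for downstream starts.

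**Figure D2:**
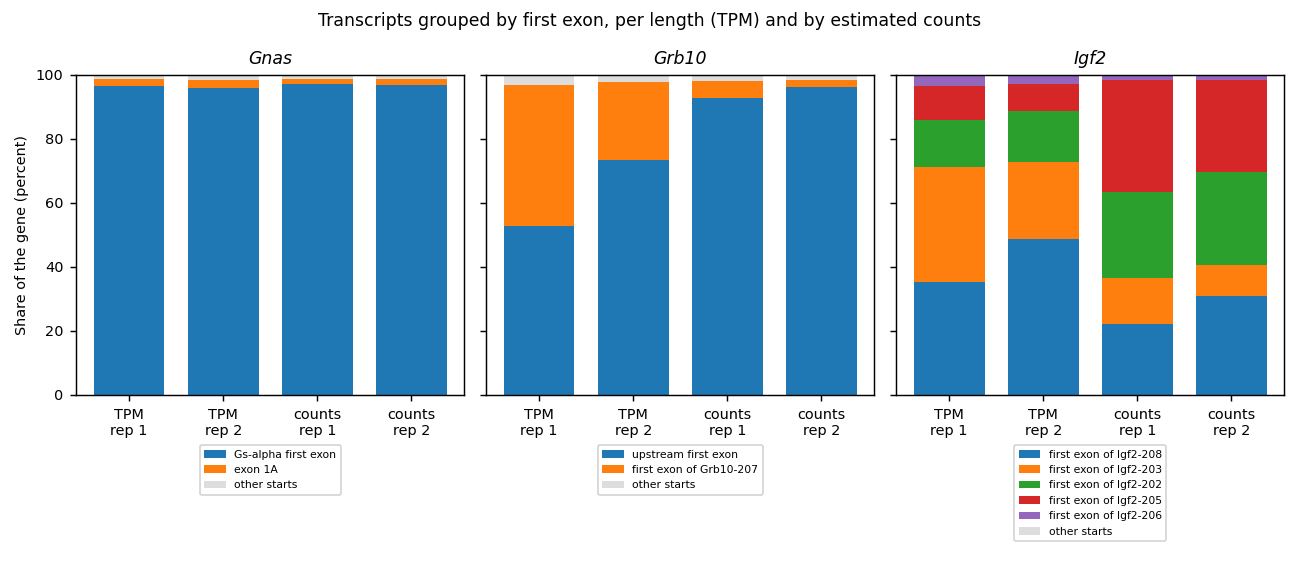
Share in percent of Gnas, Grb10 and Igf2 taken by transcripts grouped by first exon, as stacked bars for replicates 1 and 2, per length (TPM) on the left of each panel and by estimated counts on the right. The Gs-alpha first exon holds 96.3% and 95.7% of Gnas on TPM, the upstream exon of Grb10 goes up to 92.7% and 96.1% in counts, and Igf2 is divided on either scale.

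The Peg3 cluster was led by Peg3 itself (ENSMUSG00000002265.11, chromosome 7, 6703892 to 6730431), a paternally expressed zinc-finger gene known for its role in growth and maternal care. It had 167 and 83.3 TPM, the widest relative spread among the 11 listed genes at 100 TPM or more. Zim1, its maternally expressed zinc-finger neighbour, had 2.51 and 2.24 TPM. Usp29, a paternally expressed ubiquitin protease gene, starts 146 bases from the start of Peg3 on the other strand and had 0.18 and 0.12 TPM from 9 and 7 counts. Peg3 exceeded Usp29 925-fold and 694-fold. The transcript Peg3-203, a model marked for nonsense-mediated decay, had 28.4 TPM in replicate 1 and 0 in replicate 2, and Peg3-201 had 134 and 80.7 TPM.

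In the cluster of Dlk1 and Dio3, the maternal noncoding RNAs Meg3, Rian and Mirg and the paternal coding genes Dlk1 and Rtl1 were measured. Meg3 (ENSMUSG00000021268.13, chromosome 12, 109541001 to 109571726) had 71.2 and 138 TPM. Rian, a host of small nucleolar RNAs, had 18.5 and 30.3 TPM, and Mirg, a host of microRNAs, had 3.81 and 5.15 TPM from 88 and 124 counts. All 3 were higher in replicate 2, and in both libraries they stood in the order Meg3, Rian, Mirg.

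The ratio of Meg3 to Rian was 3.84 and 4.54, and that of Rian to Mirg 4.86 and 5.89. Dlk1, a Notch-related ligand of progenitor cells, had 40.5 and 41.0 TPM, so its ratio to Meg3 was 0.569 and 0.298. Rtl1, a retrotransposon-derived gene of placental vessels, had 0.28 and 0.42 TPM from 34 and 59 counts. Its exon lies opposite microRNA genes on the other strand, known to be expressed from the maternal copy, among them miR-127 printed above.

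The Prader-Willi cluster is silenced on the maternal copy, and its paternal members are best known from neurons. Ndn, a 1-exon gene of the MAGE family that promotes differentiation, had 137 and 136 TPM, among the closest pairs of values of the list. Its neighbour Magel2, of the same family, had 0.65 and 0.28 TPM from 58 and 29 counts, and Mkrn3, a ring-finger gene, had 4.23 and 4.04 TPM. Ndn exceeded Magel2 210-fold and 486-fold. Snrpn, which encodes a spliceosomal protein and shares exonic bases with Snurf, had 33.7 and 30.2 TPM.

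Ube3a, a ubiquitin ligase gene that is maternal only in neurons, had 40.6 and 33.6 TPM, and shares exonic bases with Snhg14 on the other strand. The ratio of Snrpn to Ube3a was 0.831 and 0.900. Nnat, a paternally expressed proteolipid gene in an intron of Blcap, had 195 and 230 TPM, 5.09-fold and 6.20-fold the level of Blcap.

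Peg10 and Sgce, both paternally expressed, start 98 bases apart on opposite strands of chromosome 6. Peg10, a retrotransposon-derived gene needed in placenta, had 9.88 and 12.9 TPM, and Sgce, which encodes epsilon-sarcoglycan, had 27.2 and 29.4 TPM. Sgce was the higher in both libraries, with a ratio of Peg10 to Sgce of 0.363 and 0.440. In counts the same ratio was 0.994 and 1.37, since Peg10 is the longer. Asb4, a maternal SOCS-box gene of the same cluster, had 31.9 and 24.2 TPM.

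Of the other paternally expressed genes, Plagl1, a zinc-finger regulator of growth, stood at 98.4 and 86.7 TPM, and Impact, a regulator of translation under stress, at 32.5 and 34.7 TPM. Zdbf2 had 6.74 and 5.98 TPM. Nap1l5, a retrogene of the nucleosome assembly protein family, and Rasgrf1, an exchange factor for Ras, were below the floor, at 0.83 and 0.32 TPM from 29 and 13 counts, and at 0.08 and 0.44 TPM from 5 and 18 counts. Ppp1r9b, the gene with no known imprint, had 11.6 and 9.03 TPM.

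Retrogenes that sit in introns of a host gene stood below their hosts in both libraries. Zrsr1, a splicing factor retrogene, had 1.46 and 1.20 TPM, 0.00468 and 0.00325 of its host Commd1, with which it shares exonic bases. Nap1l5 stood at 0.108 and 0.0952 of Herc3, and Mcts2, from the further list below, at 0.241 and 0.323 of H13.

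**Figure D3:**
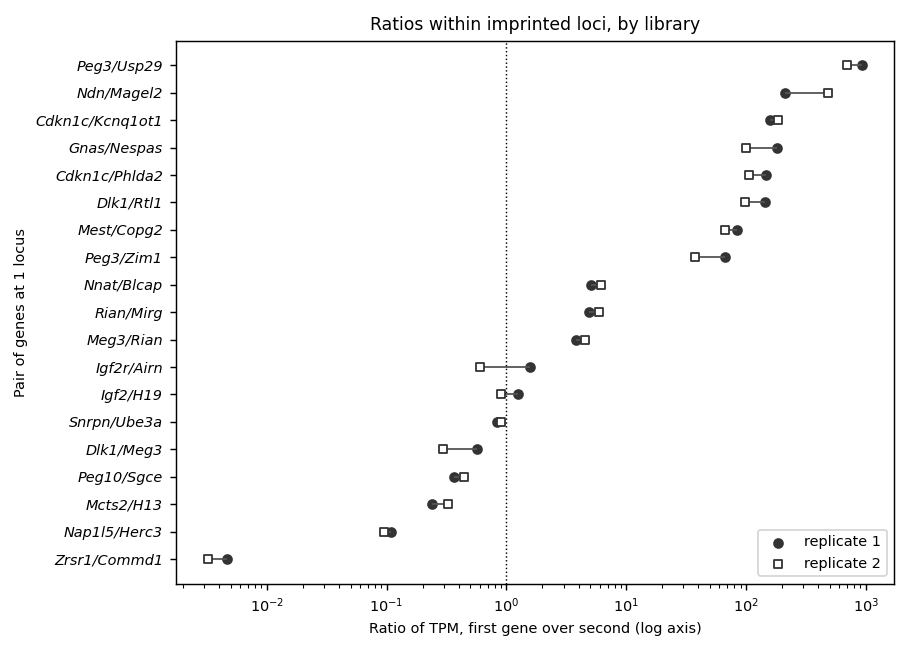
Ratio of TPM between 2 genes of 1 imprinted locus on a log axis, for 19 pairs, with replicate 1 as filled circles, replicate 2 as open squares and the dotted line at 1. The ratios of Igf2r to Airn and of Igf2 to H19 lie on either side of 1, and the other 17 lie on the same side in both libraries.

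By the allele of the literature, 17 of 22 paternally expressed genes and 9 of 9 maternally expressed genes were detected, with medians of 17.4 and 24.4 TPM over each group. The undetected paternal genes were Usp29, Rtl1, Magel2, Nap1l5 and Rasgrf1. Of 3 genes known as maternal in placenta, Cd81 and Tssc4 were detected and Ascl2 was not. Such genes, and that maternal in neurons, were classed apart, whereas paternal genes were not divided by tissue. The counts of paternal and maternal genes detected are therefore not on equal terms. All 7 noncoding members were detected, at a median of 23.4 TPM, and 25 of 31 coding members with a median of 28.3 TPM over the 31. These groups are small and overlapping in range, from 0.15 to 1933 TPM for the paternal and from 2.38 to 761 TPM for the maternal genes.

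The difference between the libraries was described as the log2 ratio of TPM + 1, replicate 2 over replicate 1, which understates differences of low genes. Among genes that reached 5 TPM in 1 library or both, 0 of 28 listed genes differed 2-fold or more, beside 5.54% of the 11424 genes at that level. At 1.5-fold, 5 of 28 or 17.9% differed, beside 27.1% of all genes. With 1 library of each embryo no gene can be tested, and the reason for any such difference was not tested.

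Of the 5 genes, Phlda2, Meg3 and Rian were higher in replicate 2, where 2.45% of all genes were 1.5-fold higher. Peg3 and Igf2r were lower in replicate 2, as were 24.7% of all genes. The log2 ratio was -0.99 for Peg3, 0.94 for Meg3, -0.92 for Igf2r, 0.68 for Rian and 0.61 for Phlda2. Among all detected genes 4.36% were at least as far apart as Peg3, 5.46% as far as Meg3 and 6.28% as far as Igf2r.

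The median log2 ratio over the 32 detected listed genes was 0.00, against -0.26 over all detected genes. Lower values in replicate 2 were found for 16 of the 32, against 73.6% of all detected genes. Under 2000 nt the median was 0.21 over 16 listed genes, against -0.02 over 5973 detected genes. From 2000 to 4000 nt it was -0.12 over 9 listed genes, against -0.40 over 5696, and at 4000 nt or more -0.18 over 7, against -0.55 over 2556. The ratio of all genes thus fell with length, and the median of the listed genes was the higher in each class. Peg3 and Igf2r are long, at 8122 and 8295 nt weighted by abundance, whereas Meg3 is 1699 nt and Phlda2 757 nt. Rian, at 2114 nt, was higher in replicate 2 in a length class where 87.4% of detected genes were lower. It lies near the bound of that class, with 2274 and 1954 nt in replicates 1 and 2. Under 2000 nt, 52.3% of detected genes were lower.

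**Figure D4:**
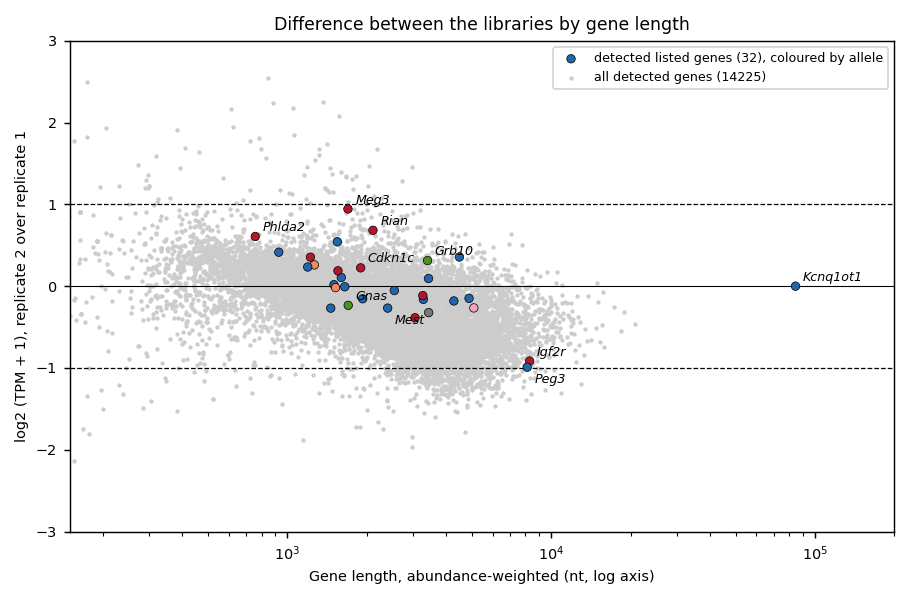
Log2 ratio of TPM + 1, replicate 2 over replicate 1, against abundance-weighted gene length in nt on a log axis, for the 32 detected listed genes (coloured by allele as in the plot of levels) and all 14225 detected genes (grey), with dashed lines at 2-fold; 124 genes lie outside the axes. The grey points sink with length, Peg3 and Igf2r lie near the lower dashed line at the long end, and Meg3 near the upper one.

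Isoform use was compared in the 23 listed genes with 2 or more transcripts and at least 5 TPM in both libraries. By isoform percent, the leading transcript was the same in both libraries for 20 of 23, with the exceptions Igf2, H19 and Peg10. How often this holds over all genes was not computed, so the count describes the listed genes alone. The leading transcript held a median of 73.5% and 74.8% of the TPM of its gene. The exceptions depended on the scale. In expected counts H19-205 led H19 in both libraries, with 41.2% and 44.5%, and Peg10-202 led Peg10, with 64.8% and 63.2%. Igf2 changed its leader in counts as well. Exons of 20 of the 38 listed genes overlap those of another gene, 18 of them on the opposite strand and 8 on the same strand, so the split of reads there can be uncertain. Some, such as Mirg, overlap microRNA genes alone. The share of all genes with such an overlap was not computed.

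A further list of 46 genes of the same loci, or reported as imprinted in some mouse tissue, was described in the same way. Of its 43 matched genes 30 were detected, beside 33.5% of all annotated genes and 59.0% of protein-coding ones. The median over the 43 was 6.06 TPM. Commd1, a copper-handling gene, was highest at 341 ± 40.6 TPM, then the signal peptide peptidase gene H13 at 105 ± 14.7 TPM, the histone chaperone gene Nap1l4 at 99.0 ± 7.87 TPM and the proteoglycan gene Dcn at 82.8 ± 1.32 TPM. Kcnk9 and Fthl17-ps1 had 0 counts in both libraries.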

How the data were processed

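Total RNA longer than 200 nt was measured in 2 libraries of 10 ng input. Build mm10 and annotation M4 are given by the submitters' processing notes; the sources used here name neither aligner nor quantifier. Per the file headers, the authors deposited expected counts (estimated reads, not whole), TPM and FPKM values, and isoform percent per transcript. Bounds of a TPM credibility interval, a signal on the TPM scale, were deposited with no level stated.

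Names, exons and 1-based coordinates came from GENCODE M21 (GRCm38), a later release than M4, whose transcript models need not be identical. The members and lists were chosen with earlier results of these data known. Each member is named; of further lists other than cell type markers, the 4 highest and 2 lowest; of Gnas, Grb10 and Igf2, transcripts at 5% or more of the gene. Transcripts of other genes, Grb10-203 and the exon 1A, Nesp and XLas starts of Gnas were named beyond that rule. The analysis used a floor of 1 TPM and a pseudocount of 1. Shares have Clopper-Pearson 95% intervals, which cover counting error only. Sequences were taken from RefSeq GRCm38.p6; windows that hold annotated exonic bases of the gene were not printed. Counts were rounded for edgeR 4.0.16 (R 4.3.3), used for TMM scaling alone. Other steps used Python 3.11.15, pandas 2.3.3, numpy 2.4.6, scipy 1.17.1 and matplotlib 3.10.9. Alternatives covered floors, folds, pseudocounts, posterior mean TPM, FPKM, rescaled TPM, TMM scaling, leaving out a replicate and, added after seeing the data, isoform shares of counts. Replicates came from separate embryos.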

Additional observations from a re-analysis of the deposited data

How the results depend on the processing

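No paired analysis was possible because the series holds 1 group. With either library left out, the median level of the listed genes ranged from 28.1 to 29.3 TPM, the share of counts from 0.982 to 1.05% and the number detected stayed at 32. The median level was 18.8 on FPKM and 30.8 TPM after rescaling without mitochondrial, haemoglobin and spike-in features. The number detected was 26 at a 5 TPM floor and 31 on FPKM. The number apart between the libraries was 5 at 1.5-fold, 1 on FPKM (Meg3) and 2 on TMM-scaled counts (Grb10 and Meg3), against 0 otherwise. The median log2 ratio of the listed genes was 0.22 on FPKM and 0.30 on TMM-scaled counts, where that of all detected genes was -0.05 and 0.00. The median of the listed genes was the higher of the 2 on each scale. Measured in counts rather than per length, 16 of 19 ratios between genes (7 higher, 9 lower) and 9 of 11 isoform shares moved by more than their SD. Putting Ppp1r9a in place of Ppp1r9b left the median level at 26.2 TPM. Levels on 5 to 18 counts, such as those of Rasgrf1, are limited by depth.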

Other observations

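Genes whose products set or hold imprints were described in the same way. Of 13 such genes 11 were detected, beside 59.0% of all protein-coding genes, and the median over the 13 was 46.7 TPM. The list was chosen with earlier results of these data known, so the count describes it and tests nothing. Trim28, the co-repressor that zinc-finger proteins bring to methylated control regions, was highest at 378 ± 56.0 TPM (SD, n = 2). Uhrf1, which guides the maintenance methyltransferase, stood at 95.4 ± 24.8 TPM, the insulator factor gene Ctcf at 78.1 ± 37.9 TPM and the histone methyltransferase gene Ehmt2 at 57.6 ± 5.69 TPM. The germ-line genes Dnmt3l and Dppa3 were the lowest, at 0.405 ± 0.120 TPM and at 0 counts in both libraries.

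Zfp57 and Zfp445, the zinc-finger genes known to protect imprints and named here after their values were seen, had 53.3 and 33.4 TPM, and 31.7 and 7.40 TPM, in replicates 1 and 2. TGCCGC, the core of the ZFP57 motif, sought on both strands, was found in 7 of the 46 start windows of the listed genes, 15.2%, against 8.68% of all windows. The 7 windows belong to 6 genes, since the 2 Mest windows cover nearly the same bases. The motif holds a CG, and the windows of the listed genes had a median of 10 CG, against 6 over all windows. A match is a description of the letters and shows no binding.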
